A study of Mus musculus with 12 samples.

Results

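The 35 genes described here are transcripts of cells other than epithelium, and they were read as a check on sorted thymic epithelium. They were taken by symbol from the table of 31332 genes, and all 35 were found. Ptprc marks leukocytes in general, 18 genes mark the T lineage, 4 the B lineage, 7 myeloid cells, 2 endothelium and 3 red cells. Each gene is listed for the cell type it is known for, and the list was drawn up with earlier results of these data known. Sequencing libraries were made from cortical (cTEC) and medullary (mTEC) thymic epithelial cells of C57BL6/J mice of 2 months, sorted by flow cytometry. All 4 groups carried floxed alleles of LXRalpha and LXRbeta, the liver X receptors, which are sterol-sensing nuclear receptors encoded by Nr1h3 and Nr1h2. The control groups carried the floxed alleles without Cre, and the other groups carried FoxN1-Cre as well. This Cre is driven by a gene of thymic epithelium, so the floxed alleles of the cells whose markers are read here are not the intended target. Control mTEC are libraries 1, 2 and 3, Cre mTEC 4, 5 and 6, control cTEC 7, 8 and 9, and Cre cTEC 10, 11 and 12. The labels do not say whether each library came from 1 animal or from a pool, so p-values measure only the spread between libraries, which may be technical.

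Thymocytes make up most of the thymus and sit packed among the epithelial cells. In the cortex, some epithelial cells, known as thymic nurse cells, enclose immature thymocytes that bear both CD4 and CD8. In the medulla, epithelial cells meet mature thymocytes, B cells, dendritic cells, macrophages and vessels, and under the regulator Aire they transcribe many genes that are otherwise restricted to other tissues. A transcript of another lineage in a sorted epithelial library can therefore have several sources, and in bulk RNA fewer cells of a type and less RNA per cell cannot be told apart. Which source gave the counts below was not tested.

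Library totals ran from 4804697 to 11159013 counts, so that 1 count was worth between 0.0898 and 0.194 CPM (a gene's count scaled to a common library total, with TMM factors throughout). Epcam, a surface protein of epithelium, lay between 488 and 961 CPM in every library. Psmb11, the thymoproteasome subunit of cTEC, lay between 254 and 995 CPM in the 6 cTEC libraries and between 12.8 and 35.7 in the 6 mTEC libraries. Aire ran the other way, from 490 to 935 CPM in mTEC and from 2.91 to 10.8 in cTEC. Nr1h2, counted over the whole gene, was below the control range in every Cre library of its cell type (102 to 124 against 158 to 192 CPM in cTEC, 70.4 to 96.1 against 110 to 132 in mTEC). Foxn1, the gene that drives the Cre, was below the control range in all Cre libraries. It ran from 73.2 to 166 CPM against 271 to 354 in cTEC (log2 difference -1.53 ± 0.36, edgeR adjusted p = 0.00851) and from 34.0 to 156 against 232 to 291 in mTEC (-1.63 ± 0.36, adjusted p = 0.0216). The controls lack Cre, so effects of Cre and of the deletion cannot be told apart. Nr1h3 overlapped between genotypes (5.84 to 10.7 CPM over all libraries), and counts over a whole gene include what lies outside a deleted stretch.

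Every marker was counted at least once in all 12 libraries. Together the 35 genes took between 0.03801% of the counts (library 8) and 0.08265% (library 3). The 18 T lineage markers summed to 375 ± 86.3 CPM in control cTEC and 366 ± 38.6 in Cre cTEC (SD, n = 3 here and below). In mTEC they summed to 277 ± 28.3 in controls and 288 ± 42.0 in Cre libraries. The 7 myeloid markers were the class that separated the cell types most, with 55.3 ± 7.70 CPM in control cTEC and 378 ± 38.0 in control mTEC, a ratio of 6.84. The same ratio was 5.73 in the Cre libraries, at 54.2 ± 3.64 in cTEC and 311 ± 76.4 in mTEC. B lineage markers summed to 6.37 ± 0.544 CPM in control cTEC and 23.2 ± 5.99 in control mTEC. The sums are descriptions and were not tested. Tcf7 was the largest part of the T lineage sum in every group, and Lyz2 of the myeloid sum. In control mTEC the B lineage sum was led by Cd79b (mean 9.50 CPM, beside 8.79 for Ighg1), and in Cre mTEC by Ighg1 (17.6 CPM, beside 8.06 for Cd79b).

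**Figure D1:**
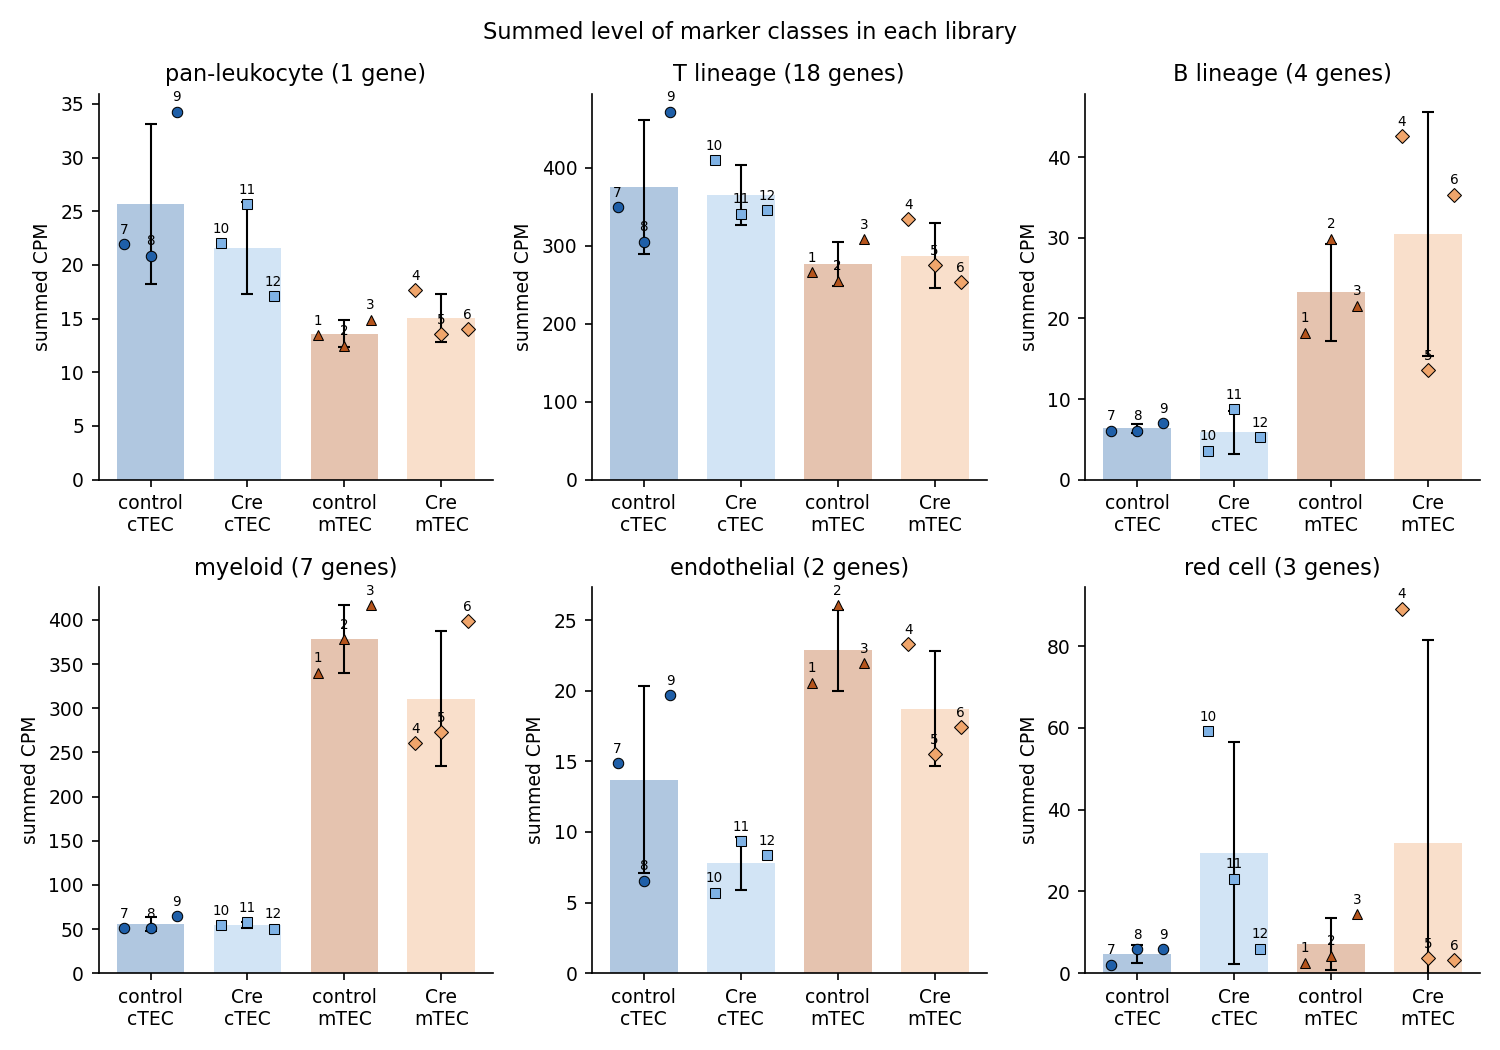
Summed CPM of each marker class (vertical axes, linear from 0) in the 4 groups; points are libraries with their numbers, bars are group means and whiskers are SD over 3 libraries. Myeloid sums lie between 50.4 and 64.2 in cTEC and between 261 and 417 in mTEC, T lineage sums lie between 253 and 472 in all groups, and red cell sums are highest in libraries 4 and 10.

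T lineage transcripts were lower in mTEC than in cTEC, but not all of them. In control libraries 11 of the 18 T lineage markers were lower in mTEC at an adjusted p under 0.05 (edgeR's quasi-likelihood test, Benjamini-Hochberg over 17268 genes), and so was Ptprc. No T lineage marker was higher. The background in this comparison is large: 59.2% of all genes passed, 30.0% lower and 29.3% higher in mTEC, against 61.1% of the T lineage markers, all of them lower. The median log2 difference over the 18 genes was -0.89, beside -0.05 over all genes tested.

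Ptprc encodes CD45, the phosphatase carried by nearly all white blood cells. Its levels were 22.0, 20.9 and 34.3 CPM in control cTEC and 13.5, 12.5 and 14.9 in control mTEC, with no overlap. The log2 difference was -0.93 ± 0.19 (SE, adjusted p = 0.00039).

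Lck, the kinase that starts signalling from the T cell receptor, had 48.8, 38.0 and 70.5 CPM in control cTEC. It had 22.3, 27.8 and 25.1 CPM in control mTEC, and all 3 values lay below the cTEC values (log2 difference -1.07 ± 0.18, adjusted p = 5.01e-05). Per kilobase of transcript it was among the most abundant T lineage markers of control cTEC, at 24.0 CPM per kb. Tcf7 stood at 28.0 on that scale and Rag1 at 2.93.

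Genes of thymocytes that are still rearranging receptors were in the lower set. Dntt, the polymerase that adds bases at receptor gene joints, had 26.8, 21.2 and 28.4 CPM in control cTEC and 13.5, 11.2 and 16.2 in control mTEC (log2 difference -0.91 ± 0.16, adjusted p = 7.21e-05). The values did not overlap. Rag2, a subunit of the recombinase that cuts receptor genes, had 3.28, 4.71 and 5.42 CPM in control cTEC and 0.539, 1.42 and 1.57 in control mTEC. Its log2 difference, -1.96 ± 0.48 (adjusted p = 0.00162), rests on 31 counts in all in control mTEC. Rag1, the partner subunit, had 20.1, 14.5 and 23.6 CPM against 11.2, 9.85 and 16.2. Here the groups overlapped, and the difference of -0.66 ± 0.21 (adjusted p = 0.0128) missed the threshold when library 1, 2, 7 or 9 was left out (largest adjusted p 0.095).

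Both chains of CD8, the coreceptor for MHC class I, were lower in mTEC. Cd8a had 20.6, 17.0 and 26.0 CPM in control cTEC and 7.63, 9.41 and 12.7 in control mTEC, all below the cTEC values. Its log2 difference was -1.12 ± 0.20 (adjusted p = 7.38e-05). Cd8b1 had 21.1, 17.2 and 32.3 CPM against 11.0, 9.08 and 15.4, again without overlap (-1.01 ± 0.24, adjusted p = 0.00134). Cd4, the coreceptor for MHC class II, did not follow them. It lay between 12.8 and 15.3 CPM in control cTEC and between 12.8 and 15.8 in control mTEC, and its log2 difference of 0.07 ± 0.17 did not pass (adjusted p = 0.742).

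The 3 chains of CD3, which carry the receptor's signal, were lower in mTEC. Cd3g had 13.3, 10.3 and 16.7 CPM in control cTEC and 5.12, 5.80 and 9.41 in control mTEC (log2 difference -1.01 ± 0.26, adjusted p = 0.00255). Cd3d had 6.40, 7.40 and 11.0 CPM against 3.68, 4.49 and 5.23. Cd3e had 11.2, 10.4 and 15.0 CPM against 7.72, 6.02 and 9.93. None of these 3 genes overlapped between the groups, but Cd3e and Cd3d did not pass without library 9 (adjusted p of 0.128 and 0.0793), and Cd3e did not pass without library 1 or 2 either. Themis, a signalling protein of developing thymocytes, had 13.8, 15.5 and 21.7 CPM in control cTEC and 6.74, 7.33 and 11.1 in control mTEC. Lat, the membrane scaffold below the receptor, had 10.4, 8.07 and 16.1 CPM against 3.59, 6.13 and 7.45. Both separated the groups completely (log2 differences -1.04 ± 0.25 and -1.04 ± 0.29), and Lat did not pass without library 9 (adjusted p = 0.058).

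Of the 7 T lineage markers that did not pass in controls, Zap70, Cd2, Cd5 and Cd28 had log2 differences between -0.88 and -0.37. The remaining 3 were Cd4, Tcf7 and Bcl11b, at 0.07, 0.09 and 0.12. Tcf7 and Bcl11b encode transcription factors of T cell commitment, and Bcl11b is also known from skin epithelium. Tcf7 had 58.3, 55.2 and 94.1 CPM in control cTEC and 73.8, 61.2 and 87.4 in control mTEC, fully overlapping. Bcl11b had 64.0, 49.4 and 61.2 CPM against 68.4, 59.7 and 61.7.

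**Figure D2:**
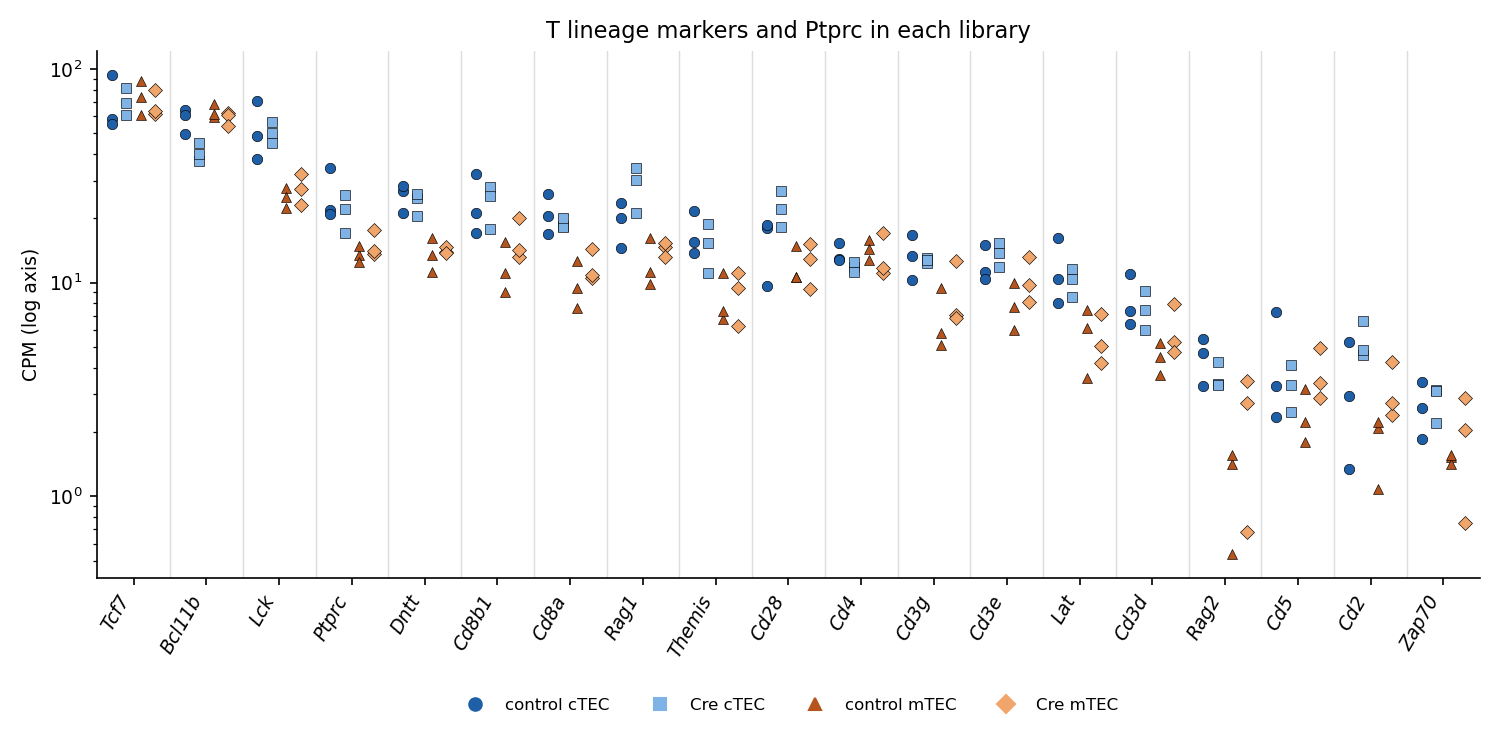
CPM on a log axis for Ptprc and the 18 T lineage markers, ordered by their mean in control cTEC; each point is 1 library and the 4 symbols are the 4 groups. Lck, Dntt and Cd8a of mTEC (triangles and diamonds) lie below the cTEC points, while the Tcf7 points of all groups overlap.

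In the Cre libraries, 8 of the 18 T lineage markers were lower in mTEC and 1 was higher, beside 24.5% of all genes lower and 25.1% higher (49.6% in either direction). The lower genes were Cd8a, Cd8b1, Lck, Rag1, Dntt, Themis, Cd28 and Lat, of which all but Cd28 had also passed in controls. The median over the 18 genes was -0.63, beside -0.02 over all genes. Lck had 56.7, 50.3 and 45.0 CPM in Cre cTEC and 32.4, 27.6 and 23.0 in Cre mTEC (log2 difference -0.88 ± 0.18, adjusted p = 0.000518). Rag1 had 34.4, 30.1 and 21.2 CPM in Cre cTEC and 14.8, 15.4 and 13.2 in Cre mTEC, and the groups did not overlap (-0.99 ± 0.21, adjusted p = 0.000578). Dntt had 25.0, 20.4 and 25.9 CPM against 13.8, 14.6 and 13.7 (-0.76 ± 0.16, adjusted p = 0.000621).

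Cd8a of the Cre libraries had 18.3, 18.3 and 20.0 CPM in cTEC and 14.3, 10.5 and 10.9 in mTEC (log2 difference -0.67 ± 0.20, adjusted p = 0.00864). Cd28, the costimulatory receptor that binds CD80 and CD86, had 26.8, 22.2 and 18.3 CPM in Cre cTEC and 15.2, 13.0 and 9.38 in Cre mTEC (-0.85 ± 0.23, adjusted p = 0.00467). In both genes every mTEC value lay below every cTEC value. Cd8b1 overlapped between the groups, at 27.9, 17.9 and 25.4 CPM against 20.1, 13.3 and 14.3. Ptprc overlapped as well, at 22.0, 25.6 and 17.1 CPM against 17.6, 13.6 and 14.0. The differences of Ptprc (-0.51 ± 0.20, adjusted p = 0.0363) and Cd8b1 (-0.60 ± 0.24, adjusted p = 0.0422) passed narrowly. Leaving out library 5, 6, 7 or 10 ended either call, library 8 or 11 that of Ptprc, and library 1 or 12 that of Cd8b1 (largest adjusted p 0.139 and 0.162). Both calls also ended under the stricter filter on low values. Themis (-0.77 ± 0.25) missed the threshold when library 6 or 10 was removed (largest adjusted p 0.112), and Lat (-0.91 ± 0.30) when library 5 or 10 was removed (largest adjusted p 0.0666).

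Bcl11b was the 1 T lineage marker that was higher in mTEC of the Cre libraries. It had 45.3, 37.1 and 40.1 CPM in Cre cTEC and 62.4, 60.7 and 53.9 in Cre mTEC, with a clear gap between the groups (log2 difference 0.52 ± 0.12, adjusted p = 0.00134). In the controls the same difference was 0.12 ± 0.12. Cre and control comparisons share no library.

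Further genes of the same cells, from lists that hold none of the T lineage markers except at the stages named, did not all move one way. Of 34 other T lineage genes tested, 8 were higher and 11 lower in control mTEC, which is 55.9% beside 59.2% of all genes, near the background, with Prkcq at -4.11 ± 0.13, Il2ra at 2.62 ± 0.17 and Ikzf1 at 2.60 ± 0.18 on the log2 scale. Of 11 genes of the stage that bears both CD4 and CD8, some of them markers already counted, 7 were lower and none was higher (median -0.77). Of all genes, 30.0% were lower and 29.3% higher. Of 10 genes of the later stages that bear 1 coreceptor, 3 were higher and 4 lower, beside the same shares of all genes. Ccr7, the chemokine receptor of medulla-bound thymocytes, was higher by 2.60 ± 0.23, and Klf2, a factor of mature T cells, was lower by -1.67 ± 0.20. For the Cre libraries the counts were 9 higher and 7 lower of 34, 1 and 5 of 11, and 3 and 3 of 10. There 25.1% of all genes were higher and 24.5% lower.

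Other thymocyte transcripts differed in level. Arpp21, an RNA-binding phosphoprotein gene expressed in thymocytes, was between 10.3 and 25.1 CPM in all 12 libraries. Ptcra, the pre-T chain, was between 0.219 and 1.28 CPM. Trac, the constant region of the receptor's alpha chain, was between 2.91 and 6.57 CPM. None of the defining genes named here was at 0.

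Within each group, T lineage transcripts tended to be highest in the same library. Library 9 held the highest value among control cTEC for 17 of the 18 markers, and library 8 the lowest for 14. Among Cre cTEC, library 10 was highest for 12 of 18. Among control mTEC, library 3 was highest for 13, and among Cre mTEC, library 4 was highest for 14. Over all 35 markers, libraries 9, 10, 3 and 4 were highest in their groups for 27, 17, 22 and 22. The same counts over all genes tested were not made. Over the class, the sum in library 9 was 472 CPM, against 349 in library 7 and 305 in library 8. Most genes moved little within a group: the highest library was under 2 times the lowest for 16 of 18 markers in control cTEC and for all 18 in Cre cTEC. Without library 9, the calls in the control comparison numbered 18 of 35 in place of 22.

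Several B lineage transcripts were higher in mTEC, but not all of them. Of the 4 markers, Cd79a, Cd79b and Ighg1 were higher in both genotypes (background 29.3% in controls and 25.1% in Cre libraries) and Ms4a1 passed in neither. Cd79a and Ighg1 had at most 5 and 2 counts in any cTEC library. They passed the filter on low counts through mTEC libraries alone, which favours this direction, so the share is no support. Cd79b, which carries the signal of the B cell receptor, had 2.25, 2.02 and 3.71 CPM in control cTEC and 8.98, 8.42 and 11.1 in control mTEC. In the Cre libraries it had 2.12, 2.14 and 2.63 CPM in cTEC and 7.76, 7.98 and 8.43 in mTEC. The groups were well apart in both genotypes, by 1.81 ± 0.26 in controls and 1.80 ± 0.27 in Cre libraries on the log2 scale (adjusted p of 7.29e-06 and 1.41e-05). Its partner chain Cd79a was scarce, at 0.346, 0.505 and 0.714 CPM in control cTEC and 2.07, 1.64 and 2.22 in control mTEC (1.86 ± 0.57, adjusted p = 0.00859). In the Cre libraries Cd79a overlapped, at 0.447, 0.194 and 0.585 CPM in cTEC and 2.28, 1.05 and 0.544 in mTEC. That call (1.55 ± 0.62, adjusted p = 0.0448) was lost in 14 of 18 alternative fits, the removal of any 1 of 10 libraries (all but 6 and 7) among them. Ms4a1, which encodes CD20, lay between 0.894 and 6.22 CPM over all libraries.

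Ighg1, the constant region of the IgG1 heavy chain made by switched B cells and plasma cells, was the most uneven B lineage marker. It had 0.346, 0.336 and 0.143 CPM in control cTEC and 0.112, 0.194 and 0.146 in Cre cTEC, which is 5 and 3 counts in all. In control mTEC it had 4.04, 17.5 and 4.84 CPM, and in Cre mTEC at 28.8, 1.66 and 22.3. Every mTEC library lay above every cTEC library, and the summed counts gave a ratio of 32.5 in controls (95% exact interval 13.7 to 101) and 123 in Cre libraries (41.9 to 601), where the interval covers counting error only. Within Cre mTEC the highest library was 17.4 times the lowest. Other immunoglobulin genes, chosen after their values were seen, did not keep to the mTEC. Ighm lay between 13.8 and 63.7 CPM and Igkc between 3.46 and 76.8 in cTEC. In library 4 Ighm reached 247, Igkc 277 and Ighg2b 185 CPM, against 24.4, 14.5 and 1.96 in library 5 of the same group.

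Of 15 other B lineage genes tested, 10 were higher in control mTEC and none was lower, and 11 were higher in Cre mTEC. Of all genes, 29.3% and 25.1% were higher. The leading genes in controls were Spib at 4.38 ± 0.16, Blnk at 3.93 ± 0.18 and Fcer2a at 4.09 ± 0.20 on the log2 scale. Spib, an Ets family factor that is also known from medullary epithelium, was between 311 and 326 CPM in control mTEC. The list, summed over 16 genes with untested ones included, lay between 652 and 695 CPM in control mTEC. In control cTEC it lay between 69.3 and 84.9.

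Myeloid transcripts were higher in mTEC. In each genotype 6 of the 7 markers (85.7%) passed in this direction, beside 29.3% of all genes in controls and 25.1% in Cre libraries, and they were the same 6 in both: Itgam, Lyz2, Csf1r, Mrc1, Cd68 and Zbtb46. Lyz2, the lysozyme of macrophages and granulocytes, had 23.9, 21.7 and 35.7 CPM in control cTEC and 207, 257 and 281 in control mTEC. In the Cre libraries it had 22.2, 19.2 and 21.3 CPM in cTEC and 170, 182 and 291 in mTEC. No mTEC library came near the cTEC range, and the log2 difference was 3.19 ± 0.21 in controls and 3.35 ± 0.21 in Cre libraries (adjusted p of 1.32e-10 and 1.3e-10).

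Zbtb46, a transcription factor known from classical dendritic cells and endothelium, had 13.0, 14.8 and 12.1 CPM in control cTEC and 78.0, 71.3 and 77.4 in control mTEC. The spread within groups was small, and the difference was 2.51 ± 0.13 (adjusted p = 5e-12). Mrc1, the mannose receptor of macrophages, had 3.63, 3.36 and 4.28 CPM in control cTEC and 25.9, 22.3 and 25.4 in control mTEC (2.69 ± 0.20, adjusted p = 1.18e-09). Itgam, the CD11b integrin chain, had 3.46, 2.35 and 1.86 CPM against 11.6, 8.10 and 14.4 (2.16 ± 0.38). Csf1r, the receptor that macrophages need to survive, had 3.46, 3.53 and 5.57 CPM against 10.3, 10.5 and 10.1 (1.28 ± 0.27). Cd68, a lysosomal glycoprotein, had 2.77, 3.87 and 2.85 CPM against 6.74, 7.66 and 7.06 (1.17 ± 0.28). In all of these genes the control groups were separate.

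Among Cre libraries Mrc1 had 3.91, 4.47 and 2.78 CPM in cTEC and 11.7, 11.1 and 15.4 in mTEC (1.79 ± 0.21). Csf1r had 2.91, 3.89 and 4.97 CPM against 8.67, 5.57 and 11.2, and Cd68 at 3.24, 1.94 and 1.61 against 5.63, 5.57 and 6.66. These 3 genes again separated the cell types. Itgam did not, at 1.12, 4.08 and 1.32 CPM against 6.09, 3.76 and 6.39, and its difference (1.43 ± 0.41, adjusted p = 0.00694) did not pass without libraries 4 and 10 together (1.03, adjusted p = 0.0886). The 1 myeloid marker that passed in neither genotype was Itgax, the CD11c chain of dendritic cells, which lay between 0.304 and 1.86 CPM over all libraries. Library 6 held the highest value of all 7 myeloid markers among Cre mTEC, and it was highest for 9 of all 35 markers.

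Of 24 other macrophage and dendritic cell genes tested, 12 were higher and 2 lower in control mTEC, and 10 were higher and 2 lower in Cre mTEC. In either direction these shares, 58.3% and 50%, are near the background of 59.2% and 49.6%. Most were in the higher direction, where 29.3% and 25.1% of all genes passed. Laptm5, a lysosomal protein of blood cells, was higher by 3.85 ± 0.16 in controls, Ctss, a protease of antigen presentation, by 3.37 ± 0.15 and Cybb, the phagocyte oxidase chain, by 2.71 ± 0.30. C1qa, a complement gene that defines tissue macrophages, was between 1.21 and 4.28 CPM in cTEC and between 3.61 and 7.76 in mTEC. Emr1, which encodes F4/80, was between 0.519 and 2.43 CPM in cTEC and between 7.00 and 11.9 in mTEC. Of 8 granulocyte and mast cell genes, 7 were higher in control mTEC and 5 in Cre mTEC, beside 29.3% and 25.1% of all genes. Among them Ly6g was at most 0.519 CPM in cTEC and passed the filter on low counts through mTEC libraries alone. That favours the higher direction, so the share is no support. Mpo, the peroxidase of neutrophil granules, was between 43.3 and 48.9 CPM in control mTEC and between 0.692 and 3.70 in control cTEC.

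**Figure D3:**
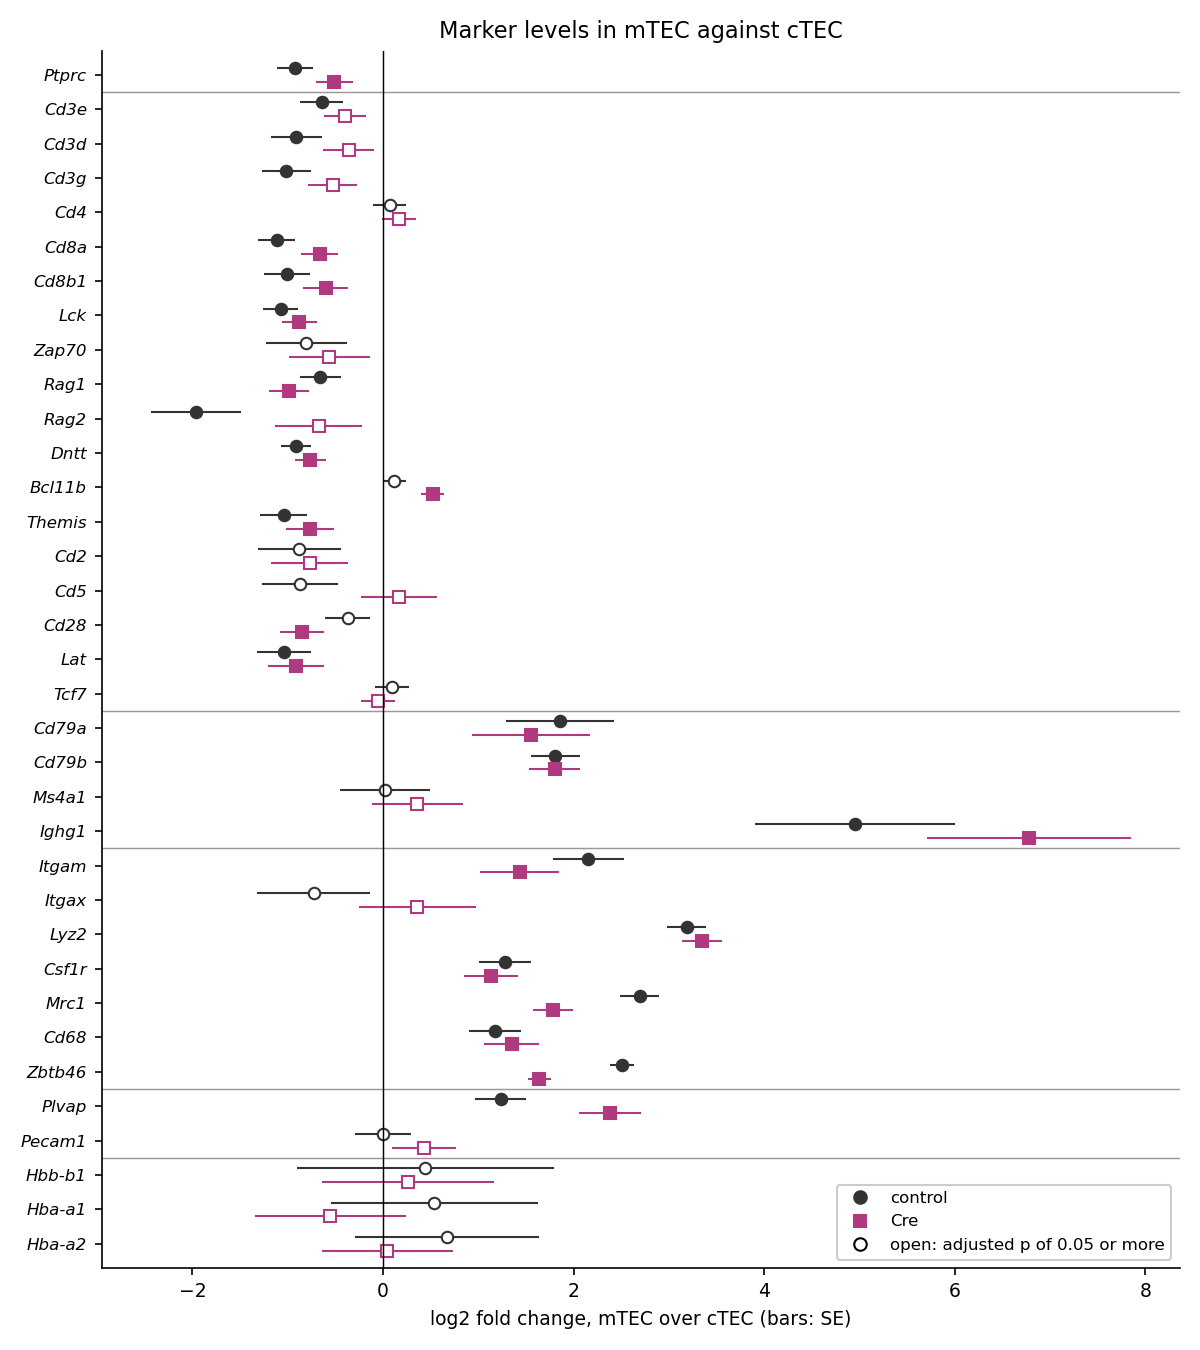
Log2 fold change of each marker in mTEC over cTEC (horizontal axis) with its SE, for control libraries (circles) and Cre libraries (squares); filled symbols have an adjusted p under 0.05 and grey lines part the classes. T lineage points lie mostly left of 0, myeloid points right of 0 except Itgax of the controls, and Ighg1 lies farthest right at 4.95 and 6.78.

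Of the 2 endothelial markers 1 passed in each genotype, higher in mTEC, a share of 50%. The background was 59.2% in controls and 49.6% in Cre libraries in either direction, and 29.3% and 25.1% higher. Plvap, which forms the diaphragms of fenestrated vessels, had 7.09, 3.20 and 9.42 CPM in control cTEC and 13.9, 17.6 and 15.4 in control mTEC (log2 difference 1.23 ± 0.27, adjusted p = 0.000714). In the Cre libraries it had 1.56, 1.94 and 3.07 CPM in cTEC and 13.1, 9.79 and 11.2 in mTEC (2.38 ± 0.33, adjusted p = 5.53e-06). The cell types were separate in both genotypes. Pecam1, the junction protein CD31, had 7.78, 3.36 and 10.3 CPM in control cTEC and 6.65, 8.42 and 6.53 in control mTEC, fully overlapping, and passed in neither genotype. Of 18 other endothelial genes, 8 were higher and 1 lower in control mTEC, and 8 were higher in Cre mTEC. In either direction these shares, 50% and 44.4%, lay below the background of 59.2% and 49.6%. Nearly all were in the higher direction, where 29.3% and 25.1% of all genes passed. Sox18, a vessel transcription factor, and Flt1, a receptor for VEGF, led in controls (3.60 ± 0.39 and 2.46 ± 0.27). Sox18 was at most 1.28 CPM in cTEC and passed the filter on low counts through mTEC libraries alone. That favours the higher direction, so the share is no support. Cdh5, the cadherin that defines endothelium, was between 0.523 and 2.28 CPM in all libraries, and Kdr, the main VEGF receptor, between 0.894 and 6.24. Both ranges overlapped between cTEC and mTEC.

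The 3 globin genes were highest in 2 single libraries. The 2 alpha globin genes are near copies, so the split of reads between them is uncertain. Their coding sequences of 426 bases differ at 1 base in the transcripts of GENCODE M21 (99.77% identity), the substitution C381T counted from the first coding base of Hba-a1. The 90 bases around it (coding bases 336 to 425, the differing base in capitals) are shown because this base is the only one by which a read in the coding sequence tells the copies apart.
Hba-a1: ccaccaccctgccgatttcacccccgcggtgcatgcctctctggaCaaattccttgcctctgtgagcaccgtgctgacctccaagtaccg
Hba-a2: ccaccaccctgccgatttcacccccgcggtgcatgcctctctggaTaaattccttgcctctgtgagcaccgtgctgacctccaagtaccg

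Hbb-b1, an adult beta globin gene, had 0.864, 3.53 and 3.43 CPM in control cTEC and 35.9, 14.0 and 3.51 in Cre cTEC. In mTEC it had 0.629, 2.19 and 8.89 CPM in controls and 63.3, 1.96 and 1.09 in Cre libraries. Library 4 and library 10 stood far above the other libraries of their groups, and the groups overlapped in every comparison of Hbb-b1. Hba-a1 (14.1 and 15.0 CPM in libraries 4 and 10) and Hba-a2 (11.7 and 8.38) were highest in the same libraries. Hbb-b2, which is outside the 35 genes and was picked after its values were seen, was at 15.4 and 9.28 CPM there and at 1.70 CPM or less elsewhere. Within Cre mTEC the highest Hbb-b1 value was 58.2 times the lowest. Hba-a2 did not overlap between genotypes in cTEC, at 0.519, 0.841 and 0.999 CPM in controls and 8.38, 3.50 and 1.17 in Cre libraries (log2 difference 2.47 ± 0.87, adjusted p = 0.0896). By edgeR no globin gene passed in any of the 5 comparisons, and none passed between genotypes in DESeq2 or limma, while 3 in cTEC and 2 in mTEC had an unadjusted p under 0.05. Of all 17268 genes, 3434 in cTEC and 2528 in mTEC had such a p by edgeR. The log2 differences between genotypes were 2.78 ± 1.16 in cTEC and 2.59 ± 1.05 in mTEC for Hbb-b1 (adjusted p of 0.172 and 0.233). These values hang on the filter: with every counted gene kept, Hbb-b1 and both alpha globin genes passed in both cell types. Leaving out library 4 brought all 3 past the threshold in cTEC (adjusted p 0.018 to 0.027), and leaving out library 12 both alpha globin genes (0.043 and 0.038). With only the 6 cTEC libraries fitted, Hbb-b1 passed (2.75, adjusted p = 0.025).

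Libraries 4 and 10 were also the libraries with the highest T lineage sums among the Cre groups (334 and 410 CPM). With both left out, 3 and 1 of the 35 markers passed between genotypes in cTEC and mTEC, as with them. Of all genes, 1117 and 287 passed there, against 1555 and 358 with both libraries kept. In the comparisons of cell types 22 markers passed in controls and 18 in Cre libraries, beside 10770 and 7081 of all genes. With both libraries kept, these were 22 and 20 markers, beside 10231 and 8573 genes. Of 8 other red cell genes, 5 were higher in mTEC in each genotype, beside 29.3% of all genes in controls and 25.1% in Cre libraries. Among the 8, Slc4a1 was at most 1.18 CPM in cTEC and passed the filter on low counts through mTEC libraries alone. That favours the higher direction, so the share is no support. Alas2, which starts haem synthesis in red cell precursors, was between 7.28 and 9.02 CPM in control mTEC and between 0.673 and 2.00 in control cTEC. It did not stand out in library 4, where it was at 5.17 CPM beside 5.12 and 4.90 in the other Cre mTEC libraries.

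**Figure D4:**
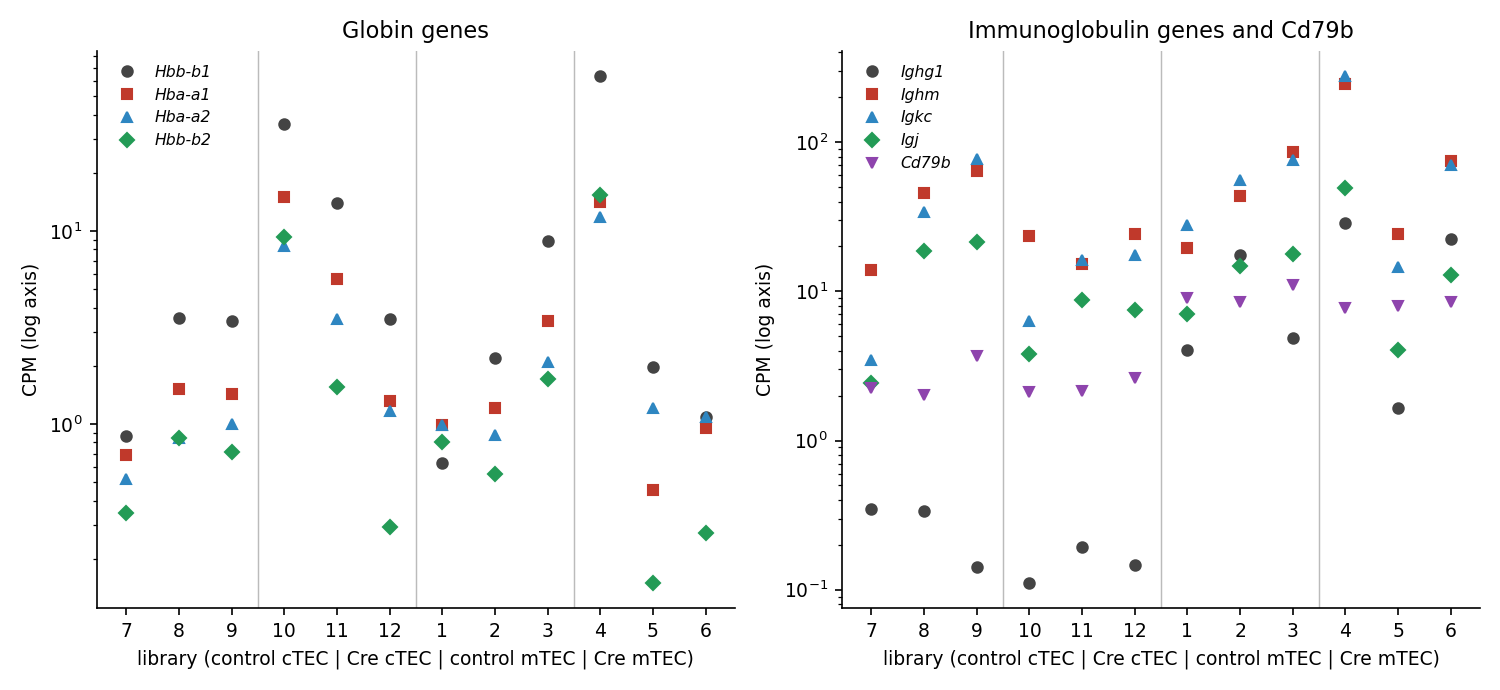
CPM on log axes of 4 globin genes (left) and of 4 immunoglobulin genes with Cd79b (right) in each library, ordered by group along the horizontal axis. Globin genes peak in libraries 4 and 10, Ighm and Igkc peak in library 4, and Cd79b stays between 7.76 and 11.1 in all mTEC libraries.

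Between genotypes few markers differed. In cTEC 3 of 35 passed, which is 8.57% beside 9.01% of all genes, with 1 higher (background 5.62%) and 2 lower (3.38%). In mTEC 1 of 35 passed, lower in Cre libraries, which is 2.86% beside 2.07% of all genes in either direction and 1.49% lower. These shares are near the background. Of the 18 T lineage markers 1 passed in cTEC and none in mTEC by edgeR, where none had an unadjusted p under 0.05 and none passed in DESeq2 or limma either. Of all 17268 genes, 2528 had an unadjusted p under 0.05 in mTEC by edgeR. The median log2 difference of the 18 genes was -0.09 in cTEC and 0.25 in mTEC, beside -0.02 and 0.01 over all genes. In mTEC 14 of the 18 were above 0, beside 8897 of all 17268 genes, with the largest at 0.98 ± 0.50 for Rag2 (adjusted p = 0.388). Library 4 was the highest Cre mTEC library for 14 of the 18 markers. Without library 4 the T lineage sum of Cre mTEC was 264 CPM, beside 277 in control mTEC. Ptprc was at -0.27 ± 0.19 in cTEC and 0.15 ± 0.20 in mTEC, and neither passed.

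**Figure D5:**
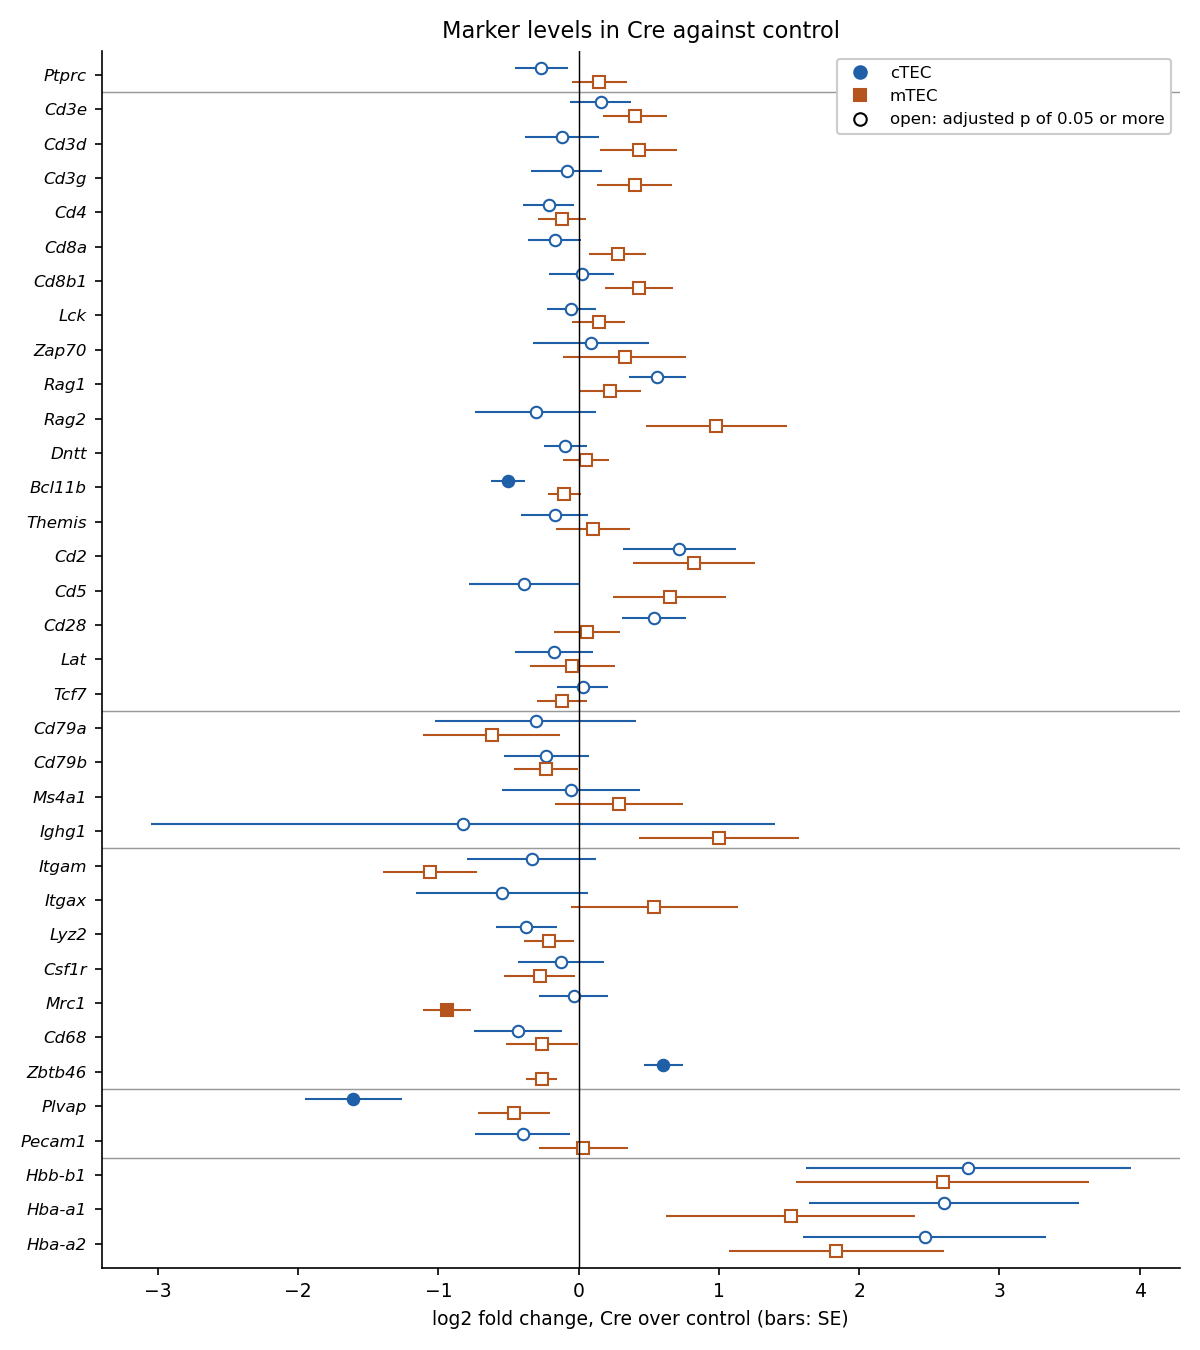
Log2 fold change of each marker in Cre over control libraries (horizontal axis) with its SE, in cTEC (circles) and mTEC (squares); filled symbols have an adjusted p under 0.05 and grey lines part the classes. Filled symbols are Bcl11b, Zbtb46 and Plvap in cTEC and Mrc1 in mTEC, and Ighg1 in cTEC has the widest bar.

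Markers of other cells and of the medulla moved between the genotypes in the same cTEC libraries as the 3 calls. Dcn and Lum, which encode matrix proteoglycans of mesenchymal cells, were lower in Cre cTEC (log2 differences -1.03 ± 0.15 and -1.27 ± 0.22), while Fbn1, a microfibril gene of the same list, was higher (1.33 ± 0.15). Of the 16 mesenchymal genes, 3 were higher and 2 lower, beside 5.62% of all genes higher and 3.38% lower. The sum of the list was 3678 CPM in control cTEC and 2379 in Cre cTEC without overlap, most of it Dcn (2467 and 1206 CPM). Krt5 and Krt14, keratins of basal and medullary epithelium, were lower as well (-0.79 ± 0.14 and -1.15 ± 0.13). The 8 mTEC check genes summed to 2477 CPM in control cTEC and 1360.3 in Cre cTEC, also without overlap. Of the 7 of them tested, 2 were lower and 2 higher. Of the 7 cTEC check genes 6 were higher in Cre cTEC, beside 5.62% of all genes, and the sums of the 7 overlapped. The part of these shifts in the results for Bcl11b, Plvap and Zbtb46 was not tested.

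Bcl11b fell in Cre cTEC, from 64.0, 49.4 and 61.2 CPM in controls to 45.3, 37.1 and 40.1. Every Cre library lay below every control library, and the log2 difference was -0.51 ± 0.12 (adjusted p = 0.0111). It missed the threshold when library 7 or 9 was removed (largest adjusted p 0.0665). In mTEC the difference was -0.10 ± 0.12 (adjusted p = 0.765), and the difference between both effects, -0.40 ± 0.17, did not pass (adjusted p = 0.227). The other 17 T lineage markers of cTEC lay between -0.39 and 0.72, with Rag1 at 0.56 ± 0.20 (adjusted p = 0.106) and Cd28 at 0.54 ± 0.23 (adjusted p = 0.179).

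Plvap fell in Cre cTEC from 7.09, 3.20 and 9.42 CPM to 1.56, 1.94 and 3.07, with no overlap (log2 difference -1.61 ± 0.35, adjusted p = 0.00486). The closest values, 3.20 in library 8 and 3.07 in library 12, nearly met, and without library 9 the call was lost (adjusted p = 0.0503). In mTEC Plvap had 13.9, 17.6 and 15.4 CPM in controls and 13.1, 9.79 and 11.2 in Cre libraries (-0.46 ± 0.26, adjusted p = 0.433). The difference between both effects was -1.14 ± 0.43 (adjusted p = 0.166). Of the 18 other endothelial genes in cTEC, Ly6c1 was lower in Cre libraries (-0.94 ± 0.24) and none was higher. Of all genes, 3.38% were lower and 5.62% higher. The list, summed over 20 genes with untested ones included, was between 71.0 and 80.4 CPM in control cTEC. In Cre cTEC it was between 49.3 and 85.3, and its part in the Plvap result was not tested. The falls of Dcn, Lum, Krt5 and Krt14 and the rise of Fbn1 given above were in the same libraries.

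Mrc1 fell in Cre mTEC, from 25.9, 22.3 and 25.4 CPM to 11.7, 11.1 and 15.4. The ranges were well apart (log2 difference -0.94 ± 0.17, adjusted p = 0.0073), but leaving out library 1 or 5 ended the call (largest adjusted p 0.0701). In cTEC Mrc1 was low in both genotypes, between 2.78 and 4.47 CPM (-0.03 ± 0.25). The difference of the effects was 0.90 ± 0.30 (adjusted p = 0.109). Itgam was also below the control range in all Cre mTEC libraries, at 6.09, 3.76 and 6.39 CPM against 11.6, 8.10 and 14.4 (-1.06 ± 0.34, adjusted p = 0.115). None of the 24 other macrophage and dendritic cell genes passed between genotypes in mTEC by edgeR. An unadjusted p under 0.05 was found for 3 of them, beside 2528 of all 17268 genes. The list, summed over 26 genes with untested ones included, lay between 709 and 809 CPM in control mTEC. In Cre mTEC it lay between 502 and 680, without overlap, and its part in the Mrc1 result was not tested. Of the mean sums, 745 CPM in control and 579 in Cre mTEC, Laptm5 alone made up 436 and 314. The log2 difference was above 0 for 4 of the 24 genes, beside 8897 of all 17268.

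Zbtb46 rose in Cre cTEC, from 13.0, 14.8 and 12.1 CPM to 20.8, 22.7 and 17.3. All Cre values were above all control values (log2 difference 0.60 ± 0.14, adjusted p = 0.00757), and the call was lost without library 9 (adjusted p = 0.0546). In mTEC the gene was lower in Cre libraries, at 58.6, 63.4 and 66.6 CPM against 78.0, 71.3 and 77.4, also without overlap, but this did not pass (-0.26 ± 0.11, adjusted p = 0.254). The genotype effect of cTEC exceeded that of mTEC by 0.87 ± 0.18 (adjusted p = 0.00852), the 1 marker of 35 to pass this test beside 4.01% of all genes (2.92% with the larger effect in cTEC, 1.08% with the smaller). It passed in each of 19 alternative fits (adjusted p up to 0.041). None of the 24 other macrophage and dendritic cell genes passed in cTEC by edgeR. An unadjusted p under 0.05 was found for 5 of them, beside 3434 of all 17268 genes. The list, summed over 26 genes with untested ones included, overlapped between genotypes. It lay between 156 and 185 CPM in control cTEC and between 151 and 179 in Cre cTEC, and its part in the Zbtb46 result was not tested.

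LXR binds DNA with a retinoid X receptor partner at paired copies of the half-site AGGTCA. Promoters were therefore searched for AGGTCA and for the pair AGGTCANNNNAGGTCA on both strands, over the 250 bases before each RefSeq start (GRCm38.p6). Matches to the pair include matches to the half-site. The half-site stood in 14.0% of 32851 promoters and the pair in 0.0152%. Of the 35 markers, 24 had a promoter in the table, of which 4 held a half-site in at least 1 promoter and none the pair. The promoters of Zbtb46, which passed the test of the difference, and of Mrc1, which fell in Cre mTEC, are shown, 5′ to 3′ on the gene's strand, with any half-site in capitals. Zbtb46 lies at chr2:181424389-181424638 on the minus strand, and Mrc1 at chr2:14229164-14229413 on the plus strand.
Zbtb46: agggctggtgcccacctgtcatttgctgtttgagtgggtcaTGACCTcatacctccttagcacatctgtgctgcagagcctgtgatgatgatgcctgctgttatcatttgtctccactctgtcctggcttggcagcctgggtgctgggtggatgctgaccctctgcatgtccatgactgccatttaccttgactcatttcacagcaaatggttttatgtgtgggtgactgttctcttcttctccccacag
Mrc1: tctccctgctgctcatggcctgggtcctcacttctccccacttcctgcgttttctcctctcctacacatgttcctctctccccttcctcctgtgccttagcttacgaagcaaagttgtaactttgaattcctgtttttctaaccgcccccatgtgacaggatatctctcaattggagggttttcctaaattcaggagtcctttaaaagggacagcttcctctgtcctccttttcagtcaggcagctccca
The capitals of Zbtb46 are the half-site read on the other strand, beginning 209 bases before the start. A match of letters shows no binding.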

How the data were processed

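The authors deposited raw counts per gene, which are whole numbers. Reads were aligned with STAR and counted with HTSeq on mm9, and edgeR was used, per the submitters' processing notes. The sources used here do not give versions, annotation or use of strand. The low-input SMARTer kit named in the labels does not mark strand, and 8 of 34 markers with a GENCODE M21 model overlap another gene's exon, so their counts may be shared.

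All 12 libraries were fitted as 4 groups with edgeR 4.0.16 in R 4.3.3: TMM scaling, filterByExpr, a two-sided quasi-likelihood test (8 residual degrees of freedom) and adjustment by Benjamini-Hochberg over 17268 genes at 0.05. All 35 markers passed the filter, Cd79a and Ighg1 through mTEC libraries alone. Some scarce genes of the other lists, such as Gp9 and Ly6g, did too, which favours the higher direction in mTEC. The shares of those lists are therefore no support. SE is the log2 fold change over the root of F. The code was tested on simulated data. Alternatives were DESeq2 1.42.0, limma 3.58.1, other scaling, filters and spread, fewer libraries and each library left out. Members and lists were chosen with earlier results of these data known, so they are no independent support. Values per library are given for markers that passed a comparison and for the most abundant of each class. Of each other list, counts are given with at most 3 genes per comparison, those of smallest p. Genes outside this rule are defining markers or were picked after their values were seen. Libraries of a group differed by more than sampling noise (chi-square per degree of freedom 3.23 to 12.4). Promoters are from RefSeq, and lengths from GENCODE M21, another build than the counts. The result for 1 further defining gene is not reported here.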

Additional observations from a re-analysis of the deposited data

Results flagged for a closer look

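Zbtb46 was marked because the test of the difference itself passed: the log2 genotype effect in cTEC minus that in mTEC was 0.87 ± 0.18 (edgeR's quasi-likelihood test, adjusted p = 0.00852). All 3 Cre cTEC libraries lay above the controls and all 3 Cre mTEC libraries below them. Groups of 3 libraries were too small to test for single outlying libraries.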

How the results depend on the processing

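Of 47 calls of markers, 33 were kept in every alternative fit. Over 935 fits, 879 kept call and direction, 56 lost the call and none reversed. Without a filter on low counts, 8 markers passed between genotypes in cTEC and 6 in mTEC, beside 1681 and 1049 of all genes. In mTEC 2 markers passed with limma and 2 with only the 6 libraries compared, Itgam being added. In cTEC the 6-library fit added Hbb-b1. Genes called between genotypes in mTEC were 358 in the main analysis, 594 with DESeq2, 1672 with limma, 1049 with no filter and 1026 with 6 libraries. For the difference of genotype effects they were 692, then 1121 with DESeq2, 1398 with limma, 1140 with no filter and 372 without libraries 4 and 10, an alternative chosen after seeing the data.

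Leaving out 1 library at a time gave 0 to 6 markers between genotypes in cTEC (1018 to 2294 genes), 0 to 2 in mTEC (78 to 984 genes), 18 to 24 between cell types in controls (8971 to 11027 genes), 15 to 24 in Cre libraries (7351 to 9846 genes) and 1 to 2 for the difference (371 to 1644 genes). The fewest markers came without library 9 in cTEC and in controls, without library 1 or 5 in mTEC, and without library 10 in Cre libraries.

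Sums of CPM were also taken without 1 gene, the one of highest mean over all libraries in its class. T lineage sums without Tcf7 were 306 and 295 in control and Cre cTEC and 203 and 219 in control and Cre mTEC. B lineage sums without Ighg1 were 6.09 and 5.71 in control and Cre cTEC and 14.4 and 12.9 in control and Cre mTEC. Myeloid sums without Lyz2 were 28.3 and 33.3 in control and Cre cTEC and 130 and 96.6 in control and Cre mTEC. Endothelial sums without Plvap were 7.14 and 5.59 in control and Cre cTEC and 7.20 and 7.39 in control and Cre mTEC. Red cell sums without Hbb-b1 were 2.00 and 11.7 in control and Cre cTEC and 3.18 and 9.85 in control and Cre mTEC. With 1 library of a group left out, sums in control cTEC, Cre cTEC, control mTEC and Cre mTEC, in that order, had these ranges. Ptprc ranged over 21.4 to 28.1, 19.6 to 23.8, 13 to 14.2 and 13.8 to 15.8. The T lineage ranged over 327 to 411, 343 to 378, 261 to 287 and 264 to 305. The B lineage ranged over 6.05 to 6.52, 4.42 to 7, 19.9 to 25.7 and 24.5 to 39. The myeloid class ranged over 50.9 to 57.7, 52.5 to 56.1, 359 to 397 and 267 to 336. The endothelial class ranged over 10.7 to 17.3, 7.02 to 8.83, 21.3 to 24 and 16.5 to 20.3. The red cell class ranged over 3.96 to 5.87, 14.6 to 41.2, 3.44 to 9.32 and 3.37 to 46.4.

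The cause of these changes was not tested. No paired analysis was possible because no library number is shared between groups. Depth limits scarce markers most, such as Ighg1 in cTEC, with 5 and 3 counts per group.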

Other observations

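Genes of further cell types were also read. Of 4 genes of natural killer and innate lymphoid cells, 3 were higher in control mTEC than in control cTEC and 2 in the Cre libraries (edgeR, adjusted p under 0.05), where 29.3% and 25.1% of all genes were higher. Tbx21, a transcription factor of these cells, was higher by 3.79 ± 0.20 on the log2 scale in control mTEC, and Gzmb, a protease of cytotoxic granules, by 2.12 ± 0.43. Tbx21 was lower in Cre mTEC than in control mTEC (-0.75 ± 0.15, adjusted p = 0.015), beside 1.49% of all genes. It was the 1 gene of the 4 to pass between genotypes.

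Of 5 platelet genes, 3 were higher in mTEC in each genotype, beside 29.3% of all genes in controls and 25.1% in Cre libraries. Among them Gp9 was at most 0.583 CPM in cTEC and passed the filter on low counts through mTEC libraries alone. That favours the higher direction, so the share is no support. The integrin chain Itgb3 was at 2.04 ± 0.34 and the platelet chemokine Pf4 at 2.24 ± 0.42 in controls. None passed between genotypes by edgeR, where 1 had an unadjusted p under 0.05 in cTEC and 0 in mTEC. Of all 17268 genes, 3434 in cTEC and 2528 in mTEC had such a p. Of 16 mesenchymal and pericyte genes, 8 were higher and 4 lower in control mTEC, and 10 were higher and 4 lower in Cre mTEC. Of all genes, 29.3% were higher and 30.0% lower in controls, and 25.1% and 24.5% in Cre libraries. Dcn was lower in control mTEC (-4.08 ± 0.17), while the pericyte gene Rgs5 and the muscle filament gene Des were higher (4.71 ± 0.24 and 3.37 ± 0.18). In mTEC 2 of the 16, Mcam and Col1a1, were lower in Cre libraries (-0.72 ± 0.13 and -0.81 ± 0.20), beside 1.49% of all genes.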
